A study of Rattus norvegicus with 4 samples.

Results

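Peripheral myelin protein 2 (Pmp2) and the fatty acid binding proteins Fabp1 to Fabp7 form a family of small carriers, and their RNA was measured in the S16 cell line. The 8 genes were chosen by symbol from the 30708 genes listed for each library, and all 8 were listed. S16 is an immortalized Schwann cell line of the rat, labelled as a myelinating Schwann cell. 1 population was taken at passage 9 (the unedited cells from which the enhancer deletion clones of the study were later made) and 1 at passage 39, and both were grown in standard medium with L-glutamine. Both populations are labelled WT and described in the methods as unmodified, and no treatment is named for them. RNA came from a confluent flask, was selected with poly dT beads, and each population gave 2 libraries labelled as technical replicates, named library 1 and library 2 here. A cell line in a flask has no axons to wrap, which limits it as a model of a myelinating cell, and each passage was 1 population.

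Fatty acid binding proteins fold into a barrel that holds a long-chain fatty acid or a related lipid, and carry it through the cytosol to membranes, mitochondria or the nucleus. Each member is known from the tissue where it is most abundant. Pmp2 encodes a protein at the cytoplasmic face of compact peripheral myelin, which binds fatty acids and holds apposed membranes together. Fabp5 is the epidermal form and is also known from regenerating nerve, Fabp3 is the form of heart and skeletal muscle, and Fabp7 is the brain form, found in radial glia and in early Schwann cells. Fabp4 marks adipocytes and macrophages, Fabp1 liver and intestine, and Fabp2 the small intestine, while Fabp6 carries bile acids in the ileum.

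In S16 cells, 3 of the 8 genes were expressed at 1 RPKM or more (RPKM, the reads of a gene scaled to its length in kilobases and to 1000000 reads of the library). Fabp5 was by far the highest, Pmp2 and Fabp3 were lower, Fabp2 rested on at most 2 reads per library, and Fabp1, Fabp4, Fabp6 and Fabp7 were listed at 0 in all 4 libraries. Of the 30708 genes listed, 11025 had a mean of at least 1 RPKM, and 17552 to 18018 were above 0 per library. Passage 9 and passage 39 had similar levels of all 3 expressed genes. Pmp2 differed more than 7-fold between the libraries labelled as technical replicates, in the same direction at both passages, whereas Fabp5 differed by a far smaller step and Fabp3 stayed within its counting error.

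These 4 libraries did not group as they were labelled. The totals behind the RPKM values, recovered from the values themselves, were between 34.2 and 41.4 M reads (M, 1000000). For each pair of libraries, the ratio of a gene's reads per total was given an exact conditional binomial 95% interval, which covers counting error only. Library 2 and library 1 of the same passage had an interval that left out 1 for 64.7% of genes with at least 20 reads at passage 9 and for 63.6% at passage 39. Between the passages, this share was 5.89% for the libraries numbered 1 and 7.97% for the libraries numbered 2. Libraries of the same number thus resembled each other across passages more than the labelled technical replicates did. The methods describe the technical replicates as pooled and sequenced over 2 lanes, and how this relates to the difference between library numbers was not tested. Exchanged labels, a library batch that follows the number and a difference between cultures cannot be told apart with these 4 libraries. Each comparison is therefore given both by passage, as labelled, and by library number.

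**Figure D1:**
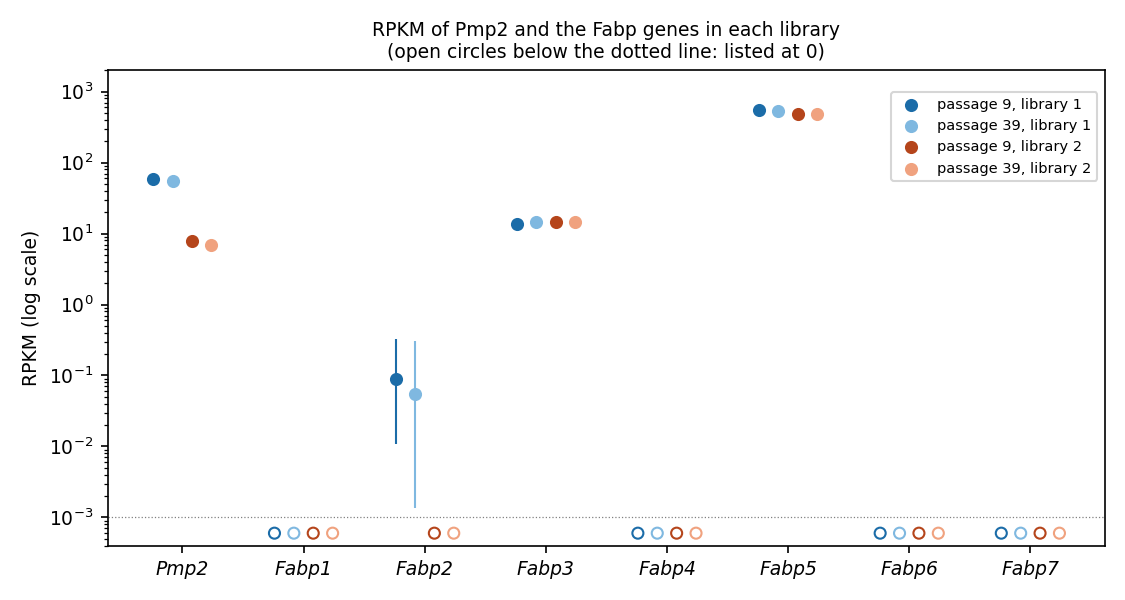
RPKM (log scale) of Pmp2 and Fabp1 to Fabp7 in each of the 4 libraries, with exact 95% counting intervals as bars, which are hidden by the points where the reads are many. Open circles below the dotted line stand for a value of 0. Pmp2 is at 58.2 and 55.1 RPKM in the libraries numbered 1 and at 7.74 and 6.98 RPKM in those numbered 2, while the 4 values of Fabp5 and of Fabp3 lie close together.

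Pmp2, the myelin member of the family, reached 58.2 RPKM in library 1 of passage 9, on 3243 reads with a 95% interval from 56.2 to 60.2 RPKM, and 7.74 RPKM in library 2, on 366 reads with an interval from 6.97 to 8.58 RPKM. The passage 39 libraries gave 55.1 RPKM in library 1, on 2542 reads (53.0 to 57.3 RPKM), and 6.98 RPKM in library 2, on 386 reads (6.30 to 7.71 RPKM). Both libraries numbered 1 were high and both libraries numbered 2 were low, with no overlap. Averaged as labelled, Pmp2 was at 33.0 RPKM at passage 9 and 31.0 RPKM at passage 39, or 32.0 ± 1.36 RPKM (SD, n = 2 populations). This SD conceals the spread between the libraries, since no library was near the mean of 32.0 RPKM.

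The reads of Pmp2 per library total were 7.51-fold higher in library 1 than in library 2 at passage 9 (95% interval 6.74 to 8.39) and 7.90-fold higher at passage 39 (7.10 to 8.82). Between the passages, the ratio of passage 39 to passage 9 was 0.947 in the libraries numbered 1 (0.899 to 0.998) and 0.901 in those numbered 2 (0.779 to 1.04). The first of these intervals leaves out 1 by a small margin, as did those of 5.89% of genes in that pair, and the second does not. These intervals compare libraries, not passages, because there was 1 population per passage. In bulk RNA, fewer cells with Pmp2 and less Pmp2 RNA per cell cannot be told apart.

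**Figure D2:**
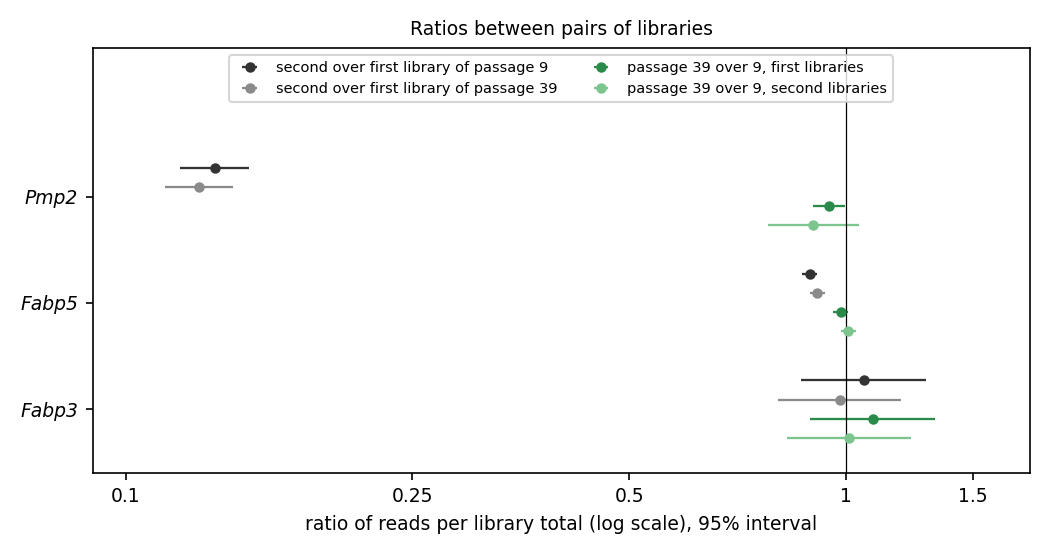
Ratios of reads per library total (log axis) for Pmp2, Fabp5 and Fabp3 in 4 pairs of libraries, with exact 95% intervals. Both ratios of library 2 to library 1 are near 0.13 for Pmp2 and near 0.9 for Fabp5, and all other ratios lie around 1.

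Differences were also taken on the log2(RPKM + 1) scale, on which the change of genes with low values is understated, over the 11025 genes whose passage means averaged at least 1 RPKM. From the libraries numbered 1 to those numbered 2, Pmp2 differed by -2.79, with -2.76 at passage 9 and -2.81 at passage 39. A 2-fold lower value in the libraries numbered 2 was found for 0.726% of these genes, and Pmp2 was 1 of 3 members tested that passed this fold. It ranked 2 among the 11025 genes in the size of this decrease, after Aldh1a1, an enzyme that makes retinoic acid. Aldh1a1 had means of 39.9 and 2.04 RPKM in the libraries numbered 1 and 2, and is named because its rank was seen. The median difference of all these genes was 0.104 as deposited. By these values the typical gene was slightly higher in the libraries numbered 2 while Pmp2 was lower. Over the genes at the minimum under each scaling, the median was -0.032 after each library was rescaled to a common sum and 0.0052 after median-ratio scaling. The difference of Pmp2 was -3.00 relative to the 200 genes nearest to it in recovered length (1347 bp for Pmp2).

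By passage, the log2 difference of Pmp2 was -0.10, and no member reached a 2-fold difference, against 0.00907% of all genes tested. This value depends on having both libraries of each passage. Without library 1 of passage 9 it was 1.27 and without library 2 of passage 39 it was 1.30, whereas it was -1.48 without library 2 of passage 9 and -1.51 without library 1 of passage 39. With 1 library gone, the passages no longer hold the same library numbers, so that the difference between numbers enters the comparison of passages. Within the same library number, the log2 differences by passage were -0.077 and -0.13.

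Fabp5 reached 544 RPKM in library 1 of passage 9, on 15781 reads with a 95% interval from 536 to 553 RPKM, and 484 RPKM in library 2, on 11915 reads (476 to 493 RPKM). The passage 39 libraries gave 535 RPKM in library 1, on 12836 reads (525 to 544 RPKM), and 488 RPKM in library 2, on 14050 reads (479.8 to 496 RPKM). Fabp5 thus followed the library number as Pmp2 did, but by a far smaller step. Its ratio of library 2 to library 1 was 0.890 at passage 9 (0.869 to 0.912) and 0.912 at passage 39 (0.891 to 0.935). The numbers 1 and 2 did not overlap for Fabp5 and for Pmp2, but this held for 87.7% of the genes tested. By passage, Fabp5 was at 513 ± 2.05 RPKM (SD, n = 2), and the intervals of both ratios between passages held 1, at 0.983 (0.960 to 1.01) and 1.01 (0.983 to 1.03).

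With this level Fabp5 ranked 51 among the 30708 listed genes, at 37 in the libraries numbered 1 and at 60 in those numbered 2. It gave between 88.3% and 95.8% of the RPKM summed over the 8 genes in each library. Only uniquely mapped reads had been kept, and a later gene table of the rat (GRCr8) lists 2 pseudogenes of Fabp5, so that reads matching such a copy equally well are not in its value. On the log2 scale, Fabp5 differed by -0.15 between library numbers and by -0.0072 between passages. The first value was -0.30 after each library was rescaled to a common sum and -0.26 after median-ratio scaling, so its direction did not change with the scaling. Relative to the 200 genes nearest to Fabp5 in recovered length, it was -0.44.

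Fabp3 differed least between library numbers among the 3 expressed genes. It was at 13.5 and 14.3 RPKM in libraries 1 and 2 of passage 9 (214 and 192 reads) and at 14.8 and 14.5 RPKM in those of passage 39 (193 and 227 reads). Its 95% intervals, from 11.8 to 15.5 RPKM in the lowest library and from 12.7 to 17.0 RPKM in the highest, overlapped throughout. All 4 ratios between libraries had an interval that held 1, from 0.980 (0.806 to 1.19) for library 2 over library 1 at passage 39 to 1.09 (0.892 to 1.33) for passage 39 over passage 9 in the libraries numbered 1. A difference smaller than these intervals was not detectable at this depth. Both libraries of passage 39 lay above both of passage 9. The passages did not overlap, in either direction, for 6.21% of the genes tested. The mean of Fabp3 was 14.3 ± 0.480 RPKM (SD, n = 2). The log2 difference of Fabp3 between library numbers was 0.025 as deposited but -0.12 after rescaling to a common sum and -0.082 after median-ratio scaling, so its sign depended on the scaling. Relative to the 200 genes nearest to Fabp3 in recovered length, it was -0.27.

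The order of the 3 genes changed with the library number. In the libraries numbered 1, Pmp2, with a mean of 56.6 RPKM, was above Fabp3, with 14.1 RPKM. In those numbered 2, Pmp2, with 7.36 RPKM, was below Fabp3, with 14.4 RPKM, and the intervals of both genes did not overlap in any library. Pmp2 gave 9.45% and 9.11% of the summed RPKM of the family in the libraries numbered 1 of passages 9 and 39, and 1.53% and 1.37% in those numbered 2. Its rank among all listed genes was 1141 in the former and 6954 in the latter.

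Of the members at or near 0, Fabp2 was at 0.0895 RPKM in library 1 of passage 9 (2 reads) and at 0.0541 RPKM in library 1 of passage 39 (1 read), and was listed at 0 in both libraries numbered 2. With so few reads its libraries cannot be told apart, since the exact interval of library 1 of passage 9, from 0.0108 to 0.323 RPKM, overlapped those of both zeros, with upper bounds of 0.195 and 0.166 RPKM. Fabp1, Fabp4, Fabp6 and Fabp7 had no value above 0. A 0 was read only as listed at 0, because 2 of the 77 cytosolic ribosomal protein genes, which every cell uses, were at 0 in all libraries as well.

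Upstream sequence from the RefSeq promoter table (build GRCr8, which is later than the build of the reads) was found for 5 of the 8 genes, namely Fabp1, Fabp2, Fabp3, Fabp6 and Fabp7. Of these, Fabp3 was expressed. It is shown beside Fabp2 and Fabp6, the genes without 1 RPKM whose 250 bases before the start lay wholly outside the annotated gene, to set a member above 1 RPKM beside members at or near 0. Each CG dinucleotide is in capitals, and for Fabp3 only the 152 bases before the annotated gene are given.
Fabp3, chr5:147935875-147936026, plus strand: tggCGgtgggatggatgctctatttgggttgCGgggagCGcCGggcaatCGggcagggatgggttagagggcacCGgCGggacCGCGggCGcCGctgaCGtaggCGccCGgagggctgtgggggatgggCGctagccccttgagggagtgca
Fabp2, chr2:213724379-213724628, plus strand: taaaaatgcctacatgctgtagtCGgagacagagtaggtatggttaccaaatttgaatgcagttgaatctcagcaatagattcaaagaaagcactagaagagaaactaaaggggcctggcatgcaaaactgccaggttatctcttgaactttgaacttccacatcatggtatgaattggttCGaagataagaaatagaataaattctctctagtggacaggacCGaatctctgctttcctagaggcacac
Fabp6, chr10:28569728-28569977, minus strand: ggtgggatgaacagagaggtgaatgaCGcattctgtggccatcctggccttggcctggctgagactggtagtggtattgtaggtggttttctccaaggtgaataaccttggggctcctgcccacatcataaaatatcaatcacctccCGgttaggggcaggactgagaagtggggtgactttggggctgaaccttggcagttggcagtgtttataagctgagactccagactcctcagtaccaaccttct

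The 250 bases upstream of the Fabp3 start in the table held 21 CG dinucleotides and were 65.6% G or C. At least 21 were found in 15.2% of the 33469 windows of this length in the table, whose median was 5. Fabp1, Fabp2 and Fabp7 held 3 each and Fabp6 held 2, counts that 71.4% and 81.9% of all windows reached or passed. The letters TATAAA, on either strand, were in the windows of Fabp1 and Fabp6 and in 12.9% of all windows, and not in those of Fabp2, Fabp3 and Fabp7. These counts describe the letters of 5 windows and were not tested against expression. The windows of Fabp1 and Fabp7 lie within the span of their annotated genes.

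In the GRCr8 gene order, Pmp2 lies in a run of related genes, Fabp12, Fabp4, Fabp9, Pmp2 and Fabp5, so that the 5 protein-coding genes on each side of it hold members with very different levels. Fabp4 was listed at 0, Fabp9 and Fabp12 were above 0 in 1 library each, at 0.0435 and 0.00767 RPKM, and Fabp5 on the other side of Pmp2 was among the highest genes of the cells. All 10 neighbours were listed, and 6 of them could be compared at 1 RPKM or more. On the log2(RPKM + 1) scale, 0.726% of all genes tested were 2-fold lower in the libraries numbered 2 and 0.372% were 2-fold higher. None of the 6 neighbours reached a 2-fold difference between library numbers. The nearest to it was Pag1, a membrane adaptor of Src family kinases, at 16.9 and 16.7 RPKM in the libraries numbered 1 and 7.67 and 8.51 RPKM in those numbered 2, slightly more than 2-fold apart in RPKM. Its log2(RPKM + 1) difference of -0.97 was -1.17 after rescaling to a common sum and -1.07 after median-ratio scaling, past 2-fold. Zfp704 differed by -0.62, Zbtb10 by -0.28 and Tpd52 by -0.082. Impa1, an inositol monophosphatase on the side of Fabp12, differed by 0.16. The large difference of Pmp2 was therefore not shared in size by Fabp5, Impa1 or any other neighbour tested.

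**Figure D3:**
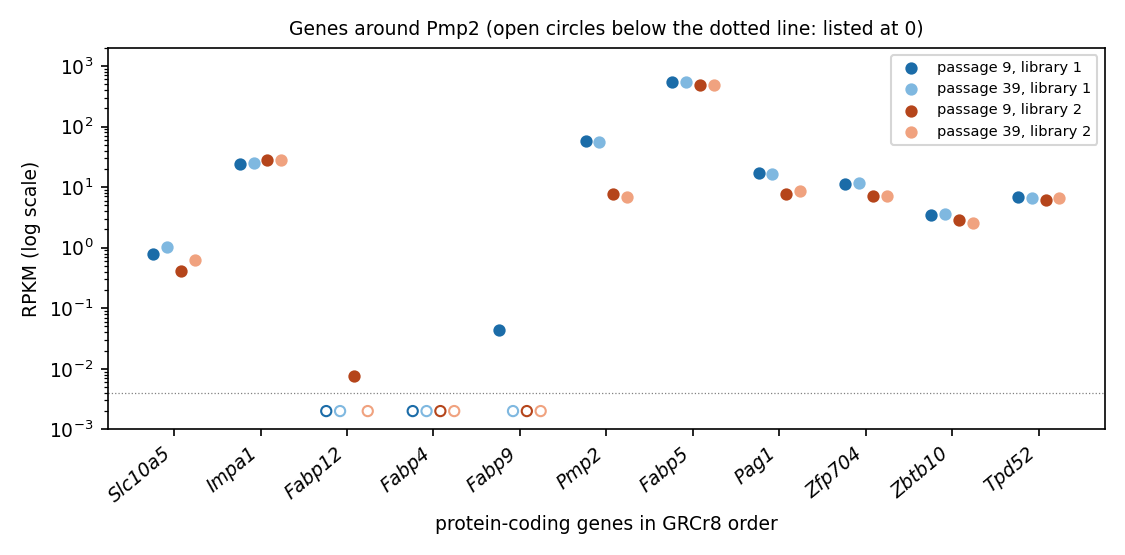
RPKM (log scale) in each library for Pmp2 and the 5 protein-coding genes on either side of it, in the gene order of GRCr8, with open circles for values of 0. Fabp12, Fabp4 and Fabp9 are at or near 0, Fabp5 lies between 484 and 544 RPKM, and Pmp2 has the widest gap between libraries numbered 1 and 2, followed by Pag1.

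The genes whose pattern over the 4 libraries was nearest to that of Pmp2 were Tubb2b, Abca8a and Igf1, at Euclidean distances of 0.149, 0.231 and 0.263 in centred log2 RPKM, among 11024 genes above 0 in all 4 libraries. Tubb2b is a beta-tubulin gene. By RNA-Seq, the study reported lower Tubb2b expression in cells with an enhancer deletion than in unmodified cells. Both populations used here were among those unmodified cells. The study also reported the decrease by digital droplet PCR and with clonal lines of unmodified cells added. In a motor neuron line, it found more Tubb2b reads when the transcription factor SOX10 was overexpressed. In the present libraries Tubb2b was at 12.2 and 12.3 RPKM in those numbered 1 and 1.86 and 1.63 RPKM in those numbered 2. A large step thus lay between the libraries labelled as technical replicates, at both passages. Whether the labels of the libraries bear on this step, or this step on the comparison with deleted cells, was not tested. Abca8a, which encodes a lipid transporter of the ABC family, was at 13.0 and 13.8 RPKM in the libraries numbered 1 and 1.61 and 1.75 RPKM in those numbered 2. Igf1, the insulin-like growth factor, was at 7.79 and 8.47 RPKM against 1.14 and 1.20 RPKM. For Fabp3 and Fabp5 the 3 nearest genes were all within a distance of 0.00910, since many genes had a nearly flat pattern. Hdgfrp3 and Sowahc were among those of Fabp3, and Senp1, LOC100909597 and LOC683955 were those of Fabp5. The libraries come as 2 like pairs, so this likeness rests on little more than the step between library numbers.

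Among 7 listed relatives of the family (Fabp9, Fabp12 and the cellular retinol and retinoic acid binding proteins), none had a mean of 1 RPKM. Crabp1, a retinoic acid carrier, was the highest, at 0.768 and 0.812 RPKM in the libraries numbered 1 and 0.453 and 0.677 RPKM in those numbered 2, on 12 to 24 reads. The others lay below 0.03 RPKM on average. Fabp5, Pmp2 and Fabp3 were thus the listed genes of this family with more than 1 RPKM in these cells.

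The 12 Schwann cell markers gave the frame for Pmp2, and 11 of them could be compared. None differed 2-fold by passage, against 0.00907% of all genes tested. Of the 11, 2 were 2-fold lower in the libraries numbered 2, against 0.726% of all genes tested. S100b, a calcium binding protein of glia, was 1 of these, at 86.2 RPKM on average in the libraries numbered 1 against 32.3 RPKM in those numbered 2 (log2 difference -1.39). The median of the 11 genes was -0.42, against 0.104 for all genes tested, with a range from -1.39 to 0.73, so that Pmp2, at -2.79, lay below each of them. The 12th, Cdh19, a glial cadherin, averaged 0.938 RPKM and so missed the minimum, but it was at 1.77 and 1.67 RPKM in the libraries numbered 1 and 0.133 and 0.175 RPKM in those numbered 2, a larger ratio than that of Pmp2. Of the 11, 8 were lower in the libraries numbered 2 as deposited, as were 35.9% of all genes tested. After rescaling to a common sum 10 were lower, against 53.9% of all genes, and after median-ratio scaling 10, against 49.4%. Most markers of the other cell types in which fatty acid binding proteins are known were at or near 0. The summed RPKM of 6 adipocyte markers was between 0.105 and 0.326, of 6 endothelial markers between 0.339 and 0.481 and of 8 markers of intestine and liver between 0.200 and 0.541, and Adipoq, Retn, Ptprc, Cdh5 and Kdr were at 0 in all 4 libraries. The sum of 7 macrophage markers was between 2.82 and 3.34 RPKM and came mainly from Cd14 and Cd68. For 7 muscle markers it was between 4.21 and 4.95 RPKM, mainly from Myh6 and Tnnt2. That of 7 markers of astrocytes and radial glia was between 27.1 and 30.9 RPKM, mainly from Nes and Gfap, which Schwann cells also express. Within these lists Myh6 went with Pmp2 (3.60 RPKM in the libraries numbered 1 and 1.53 RPKM in those numbered 2), as did Gfap (14.9 and 10.5 RPKM), whereas Tnnt2 (1.22 and 2.65 RPKM) and Nes (11.8 and 19.5 RPKM) went the other way. The part of other cell types in the difference of Pmp2 was not tested.

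Of 16 genes listed for fatty acid uptake and activation, 9 had 1 RPKM or more, against 11025 of all 30708 listed genes. Cd36, the fatty acid translocase of adipocytes and muscle, was listed at 0, as were Slc27a2 and Slc27a6. The highest were Got2, at 65.2 to 70.2 RPKM, and the acyl-CoA synthetases Acsl3, at 48.6 to 52.6 RPKM, Acsl5, at 35.7 to 41.9 RPKM, and Acsl4, at 15.5 to 17.0 RPKM. The median log2 difference of these 9 genes between library numbers was 0.091 as deposited, -0.053 after rescaling to a common sum and -0.020 after median-ratio scaling. None of the 9 was 2-fold lower in the libraries numbered 2, against 0.726% of all genes tested, and 1 was 2-fold higher, against 0.372%. This was Cav1, the main protein of caveolae, at 9.53 and 9.52 RPKM in the libraries numbered 1 and 20.5 and 20.7 RPKM in those numbered 2. Its log2 difference of 1.04 was 0.94 after rescaling and 0.93 after median-ratio scaling, below a 2-fold difference. Cav1 thus lay on the opposite side of Pmp2.

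Of 11 other soluble lipid carriers, 10 had 1 RPKM or more, against 11025 of all 30708 listed genes. None of the 10 was 2-fold apart in either comparison. Of all genes tested, 0.726% were 2-fold lower and 0.372% 2-fold higher in the libraries numbered 2, and 0.00907% were 2-fold apart by passage. The log2 differences of the 10 carriers between library numbers were from -0.21 to 0.44. Among the highest 4 carriers, these differences ran from -0.21 for Scp2 to 0.12 for Dbi, beside -0.15 for Fabp5. Npc2, a lysosomal cholesterol carrier, was at 101.0 to 110.3 RPKM, Dbi, the acyl-CoA binding protein, at 61.8 to 68.1 RPKM, Gltp, a glycolipid transfer protein, at 45.3 to 51.0 RPKM and Scp2, a sterol carrier, at 27.3 to 32.6 RPKM. The summed RPKM of the 11 genes was between 310.1 and 312.1 in the 4 libraries. Fabp5 alone was above this sum in each of them. Of 13 nuclear receptors listed as lipid sensing, 8 had 1 RPKM or more. Rarg, at 30.1 to 38.2 RPKM, Nr1h2, at 25.1 to 32.6 RPKM, Rara, at 22.0 to 24.7 RPKM, and Rxrg, at 20.4 to 23.7 RPKM, were highest. Ppard, the receptor to which Fabp5 is known to deliver ligands, was at 2.89 to 3.36 RPKM, and Pparg, the adipocyte receptor, was above 0 in 1 library, at 0.0122 RPKM.

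**Figure D4:**
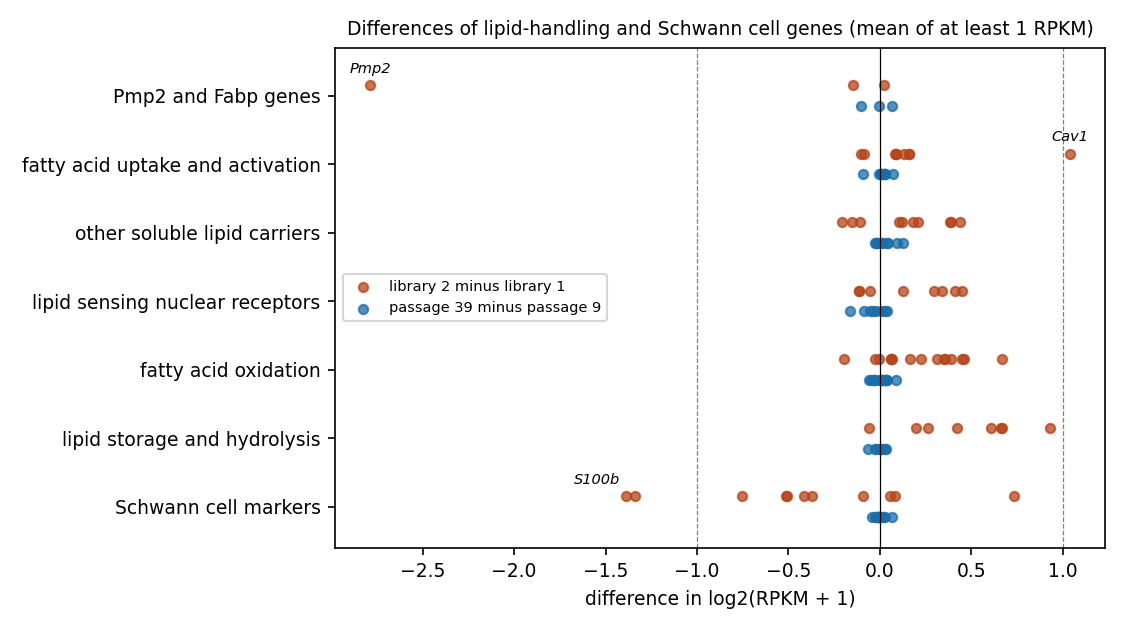
Differences in log2(RPKM + 1) between library numbers (upper points) and between passages (lower points) for genes averaging 1 RPKM or more in 7 lists, with dashed lines at a 2-fold difference. Pmp2 lies at -2.79 between library numbers, beyond all other genes shown, and all differences between passages lie between -0.16 and 0.13.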

How the data were processed

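RNA-Seq of 4 libraries was used, 2 from each of 2 populations of S16 cells. According to the methods, the authors made TruSeq libraries, aligned single-end reads to the rat genome (rn5) with STAR, kept unique alignments and used HTSeq to obtain counts per gene without strand; tool versions are not given in the sources used here. The authors deposited RPKM values per gene symbol for each library, without gene lengths or totals. Totals and whole reads were recovered by taking the smallest whole reads able to yield the deposited ratios, which resolved 18114 of 18114 genes above 0 in 2 or more libraries, so a factor common to all libraries may remain hidden and true intervals may be narrower. The recovered totals are above the reads per cell line given in the methods, a gap that was not resolved, and intervals would be wider if the true totals were smaller. The recovery was tested on simulated data. Clopper-Pearson 95% intervals were used for single libraries and exact conditional binomial intervals for ratios, and both cover counting error only.

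With 1 population per passage no p-value was computed. Differences are means of log2(RPKM + 1) per group, with a minimum mean of 1 RPKM and a fold of 2. The 8 genes, the gene lists and the naming rule (the 8 genes, up to 4 highest genes per list, 5 neighbours on each side, 3 nearest patterns) were chosen with earlier results of these data known; some further genes were named after their values were seen, and some that the rule names are not reported here. Alternatives were a pseudocount of 0.1 RPKM, other minimums, 2 scalings, other totals and each library left out. The comparison with genes of similar length was added after seeing the data. Versions were Python 3.11.15, numpy 2.4.6, pandas 2.3.3, scipy 1.17.1 and matplotlib 3.10.9. Libraries of edited or clonal cells and CAGE data were not analysed here.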

Additional observations from a re-analysis of the deposited data

How the results depend on the processing

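The number of members at 1 RPKM or more was 3 under every scaling, minimum and left-out library that was run. The number of genes 2-fold apart between passages, 1, was 4 with a pseudocount of 0.1 RPKM, 4 once each library was rescaled to 1000000, 0 if a mean of 5 RPKM was required, and from 13 to 17 when each library was left out in turn. That between library numbers, 121, was 253 with a pseudocount of 0.1 RPKM and 328 after rescaling, and stayed within 1.5 times its value otherwise. The log2 difference of Pmp2 between library numbers kept its sign, at -2.93 with a pseudocount of 0.1 RPKM, -3.03 after rescaling, -2.89 after median-ratio scaling and -3.00 relative to genes of similar length. All 12 read ratios of members kept their interval on the same side of 1 when the totals were replaced by the reads on listed genes. No paired analysis was possible because no result comes from a test, with 1 population per passage, although differences by passage are also given within each library number. Depth limits Fabp2 and Fabp3, and the number of populations limits every comparison by passage.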

Other observations

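Genes that burn and store fatty acids were also measured. Of all genes tested, 0.00907% differed 2-fold by passage, and 0.726% were 2-fold lower and 0.372% 2-fold higher in the libraries numbered 2. Of 16 genes of fatty acid oxidation, 15 had a mean of at least 1 RPKM, against 11025 of all 30708 listed genes. None of the 15 differed 2-fold by passage or by library number. The highest were the trifunctional protein subunits Hadha, at 43.7 to 49.2 RPKM, and Hadhb, at 35.8 to 43.0 RPKM, with the dehydrogenase Acadl at 34.7 to 46.8 RPKM and the isomerase Eci1 at 29.4 to 41.9 RPKM. Of the 15 genes, 12 were higher in the libraries numbered 2 as deposited, against 64.1% of all genes tested, and 9 were higher after rescaling to a common sum or median-ratio scaling, against 46.1% and 50.6%. Their median log2 difference was 0.23 as deposited against 0.104 for all genes tested.

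Of the lipid storage and hydrolysis genes, 7 of 8 with at least 1 RPKM were higher in the libraries numbered 2 under all 3 scalings, beside the same shares of all genes, with a median of 0.51 as deposited, 0.39 after rescaling to a common sum and 0.41 after median-ratio scaling. Plin3, a lipid droplet coat protein, averaged 19.7 RPKM in the libraries numbered 1 and 31.8 RPKM in those numbered 2. Plin2, another coat protein, averaged 13.1 against 20.4 RPKM. Mgll, which cleaves monoglycerides, averaged 7.91 against 13.1 RPKM, and Dgat1, which makes triglycerides, averaged 17.2 against 23.4 RPKM. No gene of this list differed 2-fold on the log2(RPKM + 1) scale, beside the 2-fold shares of all genes given for oxidation. The lipoprotein lipase Lpl was nearest, at 0.93, and its RPKM values of 1.92 and 2.03 against 4.88 and 4.46 were more than 2-fold apart. The adipocyte genes Plin1 and Cidec had means under 0.03 RPKM.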
